A study of Mus musculus with 48 samples.

Results

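Mitochondrial ribosomal proteins are encoded in the nucleus, made in the cytosol and imported into mitochondria. There they join the mitochondrial ribosomal RNAs to form the large subunit (genes named Mrpl), which joins amino acids, and the small subunit (genes named Mrps), which reads the messenger RNA. The mitochondrial ribosome translates the few messenger RNAs of the mitochondrial genome, all of which encode subunits of the respiratory chain and ATP synthase, and liver is rich in mitochondria. The genes described here are all those whose symbol starts with Mrpl or Mrps followed by a digit. They numbered 78 of the 18434 genes named on the array, 49 Mrpl and 29 Mrps, and were measured by 116 probes. Where a gene had several probes, the brightest on average represented it. The choice used names and not values.

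RNA of liver and colon was measured in C57/BL6 mice aged 12 weeks, against a common reference RNA on 2-colour arrays. Each tissue had 24 arrays. All diets were high in fat, and diet H was supplemented with selenium and folate while diet L was marginally deficient in both. The first letter of a group names the diet of the dam before mating and through gestation and lactation, and the second that of the offspring from weaning, so that HH mice met diet H throughout, HL mice diet L from weaning only, LH mice diet L through the dam only, and LL mice diet L throughout. Liver came from 5 HH mice, 1 of them on 2 arrays that were averaged, and from 6 mice each of HL, LH and LL. Colon came from 6 mice of each group, with animal codes other than those of the liver. The study's methods describe 6 offspring of each group and the removal of both tissues. Liver and colon may therefore share mice under different codes. The labels do not give litters, so mice of a group may share a dam. Values are log2 ratios of mouse over reference, and a difference of 1 is a 2-fold difference.

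The tissue labels were borne out by the cell type markers: all 8 measured hepatocyte markers were called higher in the liver, and 9 of 10 colon epithelium markers were called lower there. In the liver between 55.1% and 66.0% of spots were well above background and in the colon between 66.8% and 73.7%. The 78 genes were well above background on every array of both tissues and none was saturated. They were bright, at the median in the 93.1th percentile of mean signal over all probes. The study's methods describe male offspring, but Xist, the RNA of the inactive X chromosome of females, lay over 1.5 log2 units above the tissue median in 2 liver mice (1 HL, 1 LL) and 6 colon mice (2 HH, 1 HL, 3 LL). Counts of members at an unadjusted p under 0.05 without these mice are given for the diet comparisons within a tissue where they differ. None of the HH and LH liver mice was among them. In bulk tissue, fewer cells of a type and less RNA per cell cannot be told apart.

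The promoters of the genes bear motifs of factors known for mitochondrial genes, and 3 are shown because the results below turn on these genes: Mrps17 and Mrpl53, lower in every LH than in every HH liver, and Mrps18b, which after loess had the largest difference between the tissues. The RefSeq table of promoters (build GRCm38.p6) held 69 of the 78 genes, with 75 promoters. Each line gives the 250 bases before the start of transcription, 5′ to 3′. Capitals mark the motif CCGGAAG or its reverse CTTCCGG, a core bound by GABPA, CGCATGCG, a core bound by NRF1 that reads the same on both strands, and AAGATGG or CCATCTT, a core bound by YY1. The GABPA-type and YY1-type motifs can share the letters AAG, so that a promoter may hold both at a single place. The stretches are chr5:129715247-129715496 (+ strand), chr6:83108858-83109107 (+ strand) and chr17:35916441-35916690 (- strand).
Mrps17: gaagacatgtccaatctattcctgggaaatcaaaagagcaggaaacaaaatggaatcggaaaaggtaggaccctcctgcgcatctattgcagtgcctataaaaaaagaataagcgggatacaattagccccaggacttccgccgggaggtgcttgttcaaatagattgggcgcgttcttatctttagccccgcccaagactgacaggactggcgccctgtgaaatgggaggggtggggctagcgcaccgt
Mrpl53: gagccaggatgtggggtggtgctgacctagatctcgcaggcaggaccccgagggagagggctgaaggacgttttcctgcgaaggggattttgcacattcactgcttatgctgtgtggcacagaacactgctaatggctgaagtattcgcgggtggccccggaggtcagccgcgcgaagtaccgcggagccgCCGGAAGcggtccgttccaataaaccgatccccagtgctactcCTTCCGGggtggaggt
Mrps18b: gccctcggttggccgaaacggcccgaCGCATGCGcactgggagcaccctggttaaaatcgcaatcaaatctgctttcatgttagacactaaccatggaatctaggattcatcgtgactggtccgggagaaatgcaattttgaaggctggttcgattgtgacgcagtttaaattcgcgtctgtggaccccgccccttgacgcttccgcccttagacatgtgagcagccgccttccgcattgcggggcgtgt
Mrpl53 held the GABPA-type motif at both marked places, Mrps18b held the NRF1-type motif near the far end of the stretch, and the stretch of Mrps17 held none of these letters. Over windows of 300 bases, from 250 before the start to 50 after it, the GABPA-type motif lay in 26 of 75 member promoters (34.7%) and in 8.86% of all 32851 promoters. The NRF1-type motif lay in 7 member promoters (9.33%) and 1.87% of all. The YY1-type motif lay in 13 (17.3%) and 6.34% of all. These are matches of letters and not measured binding.

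The first comparison sets LH against HH livers, which differ in the diet of the dam while all offspring had diet H. LH mice also changed diet at weaning and HH mice did not, and these cannot be told apart here. The mitochondrial ribosomal protein genes were on balance slightly lower in LH livers: the median difference over the 78 genes was -0.15, against -0.01 over all 41171 probes tested, and 63 of 78 lay below 0. No gene was called at a fold over 1.5 with a false discovery rate under 0.05, as none was among all probes (0% called). The lowest adjusted p of a member was 0.180 (limma, Benjamini-Hochberg over all probes). At an unadjusted p under 0.05, 22 of the 78 were lower (28.2%) and 0 higher, where 6.15% of all probes were lower. Without the mice of high Xist signal 23 were lower (5.84% of all probes). In a single fit of the 8 groups of both tissues, 6 members had a false discovery rate under 0.05 in this comparison, all lower, where 113 of all probes (0.274%) were lower and 136 higher. None of the 6 reached a fold of 1.5. With median centring in place of loess the median difference of the members was -0.04 against -0.06 over all probes, so the median of the members was then not below that of the rest. At an unadjusted p under 0.05, 10 members (12.8%) were then lower and 0 higher, where 4.71% of all probes were lower.

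Genes of both subunits were among these. Of the 49 large subunit genes 14 were lower at an unadjusted p under 0.05, with a median difference of -0.16. Of the 29 small subunit genes 8 were lower, with a median difference of -0.14. Differences over the 78 genes ran from -0.56 to 0.19, with standard errors between 0.06 and 0.18. Mrpl45 and Mrps27, named after their values were seen, stood at the upper end with 0.15 and 0.19. The other probe of Mrpl45 gave -0.15.

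**Figure D1:**
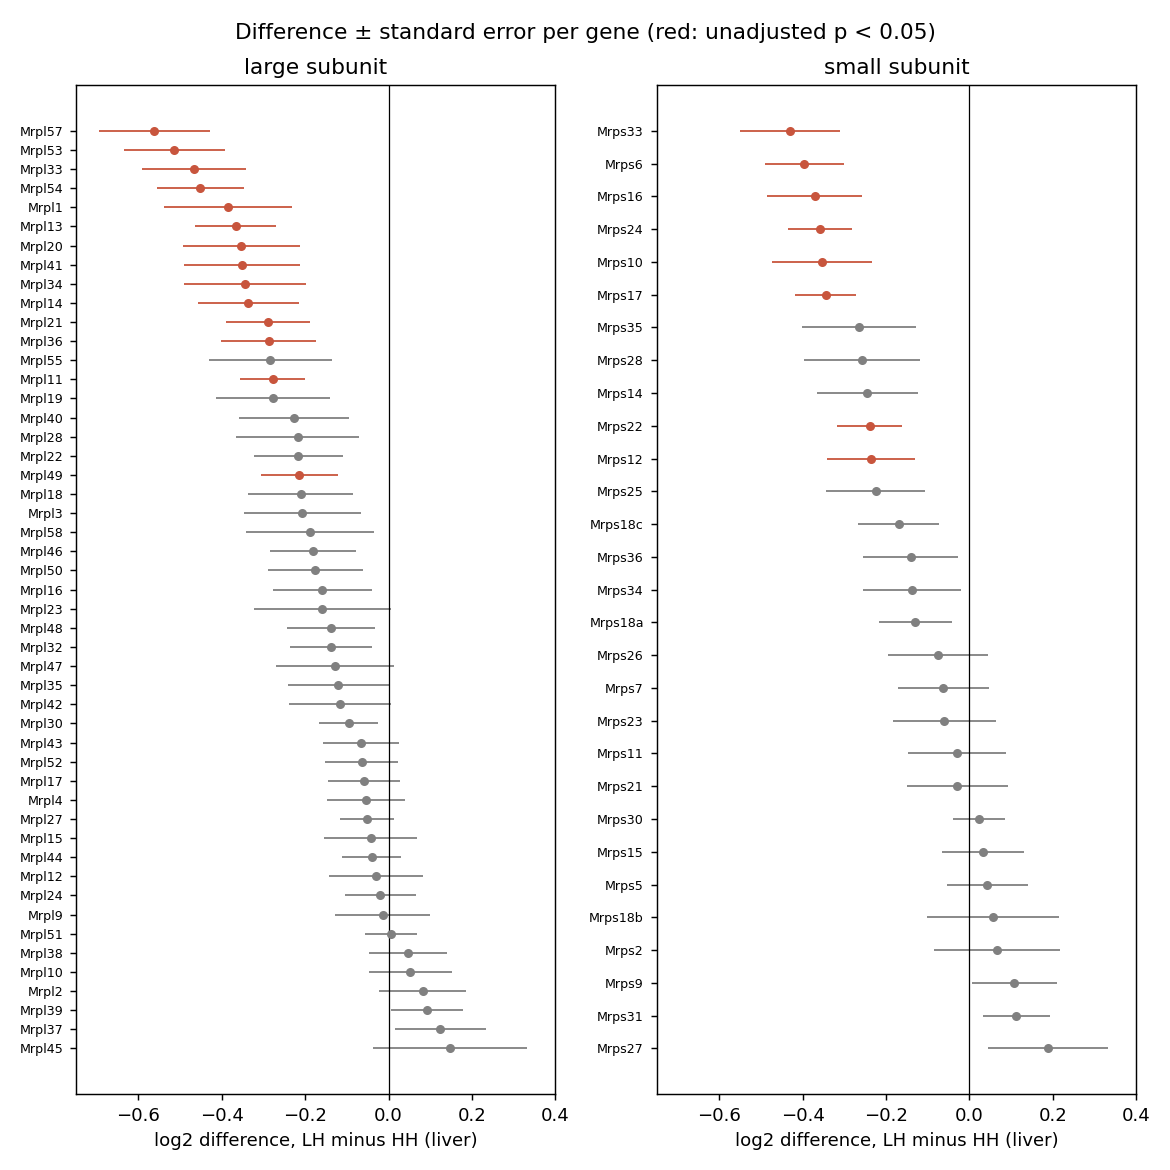
Difference LH minus HH in liver of each gene on the log2 scale (x axis, point, with its standard error as bar), for 49 large subunit genes on the left and 29 small subunit genes on the right (y axis). Red marks the 22 genes with an unadjusted p under 0.05, all left of 0. The largest difference is that of Mrpl57, -0.56.

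Mrps17, a core protein of the small subunit that binds its ribosomal RNA, had the lowest p. Its log2 ratio in the 5 HH livers was 0.74, 0.67, 0.71, 0.62 and 0.86. In the 6 LH livers it ran from 0.30 through a median of 0.39 to 0.40. All LH livers lay below all HH livers. The difference was -0.34 ± 0.07 (standard error), with a 95% confidence interval from -0.50 to -0.19 (limma, unadjusted p = 9.67e-05, adjusted p = 0.180). A second probe of Mrps17 gave -0.15.

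Mrps24, a core protein near the channel where the messenger RNA enters, had ratios of 0.47, 0.56, 0.54, 0.67 and 0.79 in HH livers. LH livers ran from 0.18 through 0.23 to 0.34. The groups did not overlap, and the difference was -0.36 ± 0.08 (limma, adjusted p = 0.180).

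Mrpl54, a large subunit protein without a bacterial counterpart, had ratios of -0.08, -0.30, 0.22, 0.09 and 0.28 in HH livers. LH livers ran from -0.56 through -0.41 to -0.28. HH mouse 2, at -0.30, lay within the LH range. The difference was -0.45 ± 0.10 (limma, adjusted p = 0.189).

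Without overlap between HH and LH livers there were 7 members, all lower in LH, that is 8.97% of the 78 against 0.847% of the probes measured on every liver array. Besides Mrps17 and Mrps24 these were Mrpl53 and Mrpl57, both specific to mitochondria, Mrpl33, a small core protein, Mrps33, specific to mitochondria, and Mrpl1, the protein of the stalk where spent transfer RNA leaves. Mrpl57 differed most, with ratios of 0.93, 0.81, 0.71, 0.57 and 0.81 in HH livers and from -0.02 through 0.20 to 0.39 in LH livers. Its difference was -0.56 ± 0.13, a fold of 1.48, but its other probe gave 0.04. Mrpl53 went from a mean of 0.84 ± 0.15 (SD, n = 5) in HH to 0.33 ± 0.14 (SD, n = 6) in LH. Mrpl33 differed by -0.47, Mrps33 by -0.43 and Mrpl1 by -0.38. Mrpl1 too had a probe of the opposite sign, at 0.19. Of the 29 genes with over 1 probe, 12 had probes of both signs in this comparison.

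**Figure D2:**
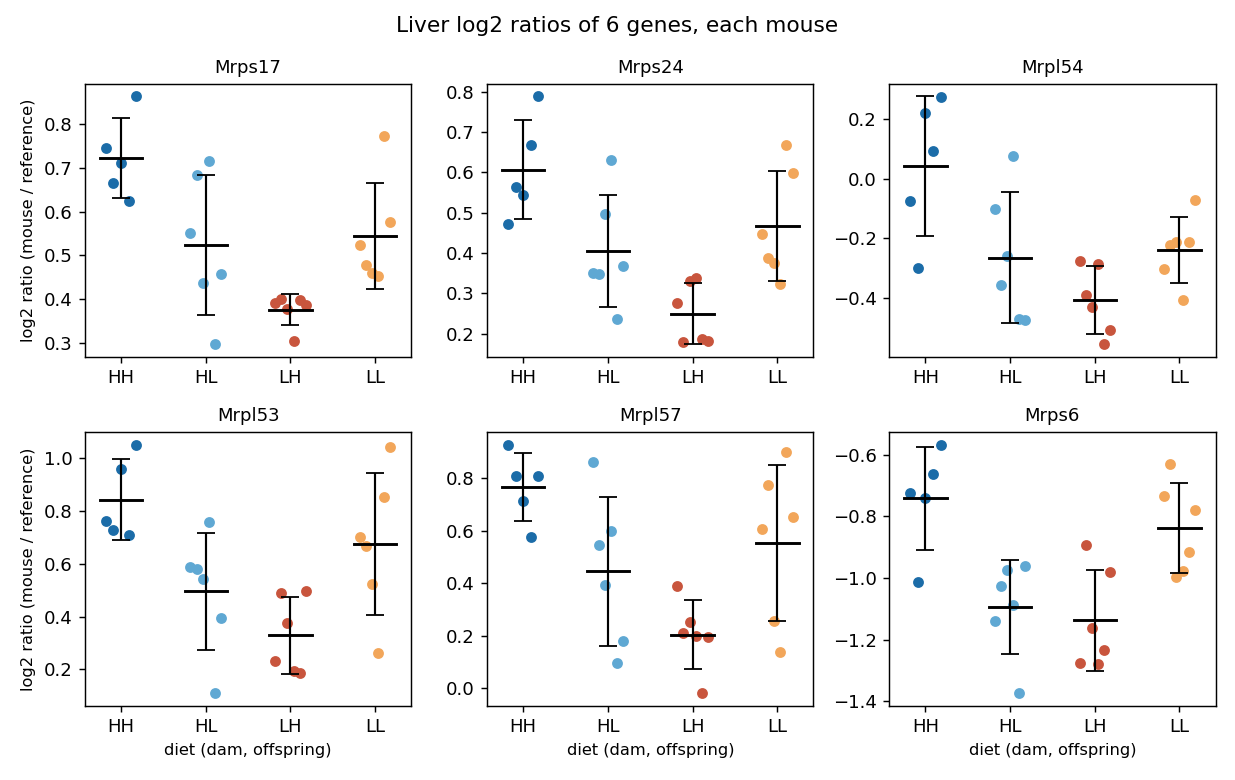
Log2 ratio of mouse over reference in liver (y axis, a separate scale in each panel) for Mrps17, Mrps24, Mrpl54, Mrpl53, Mrpl57 and Mrps6 in the 4 diet groups (x axis). Points are mice, bars the mean ± SD of 5 HH mice and 6 mice of each other group. In Mrps17, Mrps24, Mrpl53 and Mrpl57 the LH points lie below all HH points, while HL and LL points spread between and across them.

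The genes listed by role ran from -0.37 to 0.07. Mrps12, which shapes the decoding centre, differed by -0.24 ± 0.11 and Mrps16 and Mrps22, in which mutations cause human respiratory chain disease, by -0.37 ± 0.11 and -0.24 ± 0.08. These 3 had an unadjusted p under 0.05. Mrps34, Mrps7 and Mrps2, also disease genes, differed by -0.14, -0.06 and 0.07. The signs of Mrps7 under median centring and of Mrps2 without LH mouse 2 were the opposite. Mrpl58, the subunit that frees stalled peptides, differed by -0.19 and Mrpl3, near the site of peptide bond formation, by -0.21. Mrpl44, an RNase III-like protein, differed by -0.04 and Mrpl12, of the stalk that recruits translation factors, by -0.03, and both signs turned under median centring. Of the 3 paralogs of the S18 family, Mrps18a and Mrps18c differed by -0.13 and -0.17 and Mrps18b by 0.06, which turned to -0.06 without HH mouse 2. Mrps36, now known as a part of the 2-oxoglutarate dehydrogenase complex, differed by -0.14. None of the genes from Mrps34 on had an unadjusted p under 0.05.

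The median over the 78 genes was also taken in each mouse. In HH livers it was 0.36 ± 0.07 (SD, n = 5) with a range from 0.28 to 0.43, and in LH livers 0.24 ± 0.07 (SD, n = 6) with a range from 0.13 to 0.31. The groups overlapped between 0.28 and 0.31. Each slide held an array of each diet, and within the 6 liver slides the LH minus HH difference in this median ran from -0.28 to -0.06, below 0 on all 6, of which 2 share an HH mouse. With slide as a block 27 members were lower at an unadjusted p under 0.05, where 7.18% of all probes were lower.

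**Figure D3:**
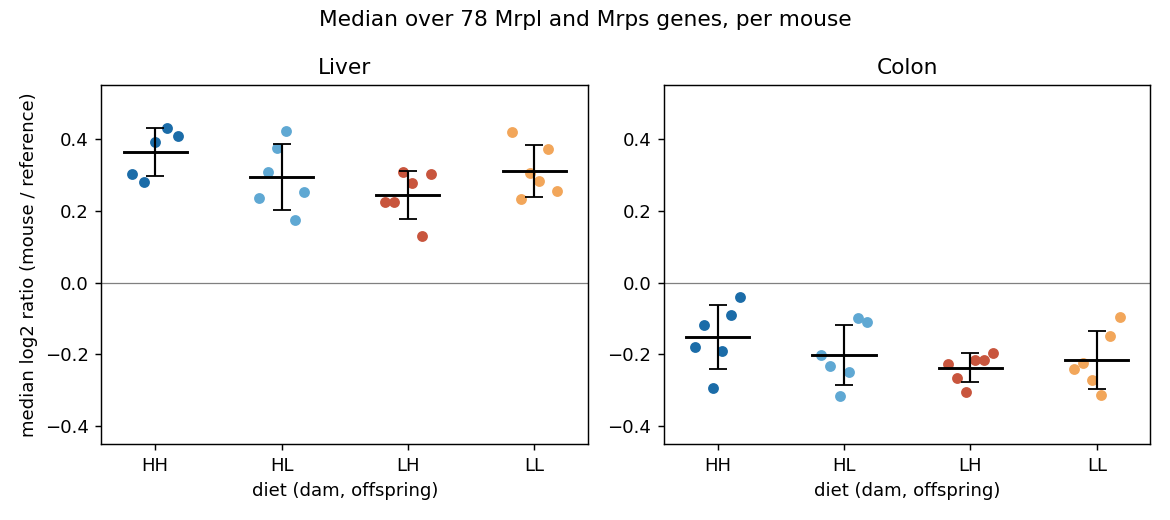
Median log2 ratio over the 78 genes in each mouse (y axis) by diet (x axis), in liver on the left and colon on the right. Points are mice, bars mean ± SD (5 HH livers, 6 mice in each other group). LH livers run from 0.13 to 0.31 and HH livers from 0.28 to 0.43, and after loess all livers lie above all colons. Under median centring livers run from -0.85 to -0.27 and colons from -0.73 to -0.17, and the tissues overlap.

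The other comparisons in the liver share groups with the first, so their values stand side by side and are not separate evidence. HL against HH, diet L from weaning only, had 9 members lower and 0 higher at an unadjusted p under 0.05 (2.22% of all probes lower, 0% called) and a median difference of -0.09, which turned to 0.04 under median centring. Mrps6, a core protein of the small subunit, differed most clearly: its ratio was -0.72, -1.01, -0.74, -0.66 and -0.57 in HH livers and ran from -1.37 through -1.06 to -0.96 in HL livers, a difference of -0.35 ± 0.10 (limma, adjusted p = 0.952). HH mouse 2, at -1.01, lay within the HL range. Mrpl54 and Mrpl53 followed, with -0.31 and -0.35. The count was 17 without HL mouse 4 and 5 without HL mouse 5 or 6, and 0 under median centring (2.03% of all probes lower).

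LL against HH, diet L throughout, had 5 members lower and 0 higher at an unadjusted p under 0.05 (2.19% of all probes lower, 0% called) and a median difference of -0.06, which turned to 0.10 under median centring. Mrpl11, near the factor-binding site, Mrpl54 and Mrps17 came first, with -0.22, -0.28 and -0.18. Without the 2 liver mice of high Xist signal 3 members were lower (2.21% of all probes). The count was also 3 without LL mouse 2 or HH mouse 4. Without HH mouse 5 there were 2 and without HH mouse 2 there were 8. Under median centring 0 members were lower and 3 higher (3.85%), where 3.09% of all probes were lower and 2.33% higher.

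In LL against LH livers the difference had the other sign, with overlapping mice. The median difference LL minus LH was 0.10, against 0.00 over all probes, and stayed above 0 under median centring (0.13). Within the 6 liver slides LL minus LH in the per-mouse median ran from -0.05 to 0.24, above 0 on 4 and below 0 on 2. No member was called (0% of all probes), and 14 members were higher and 0 lower at an unadjusted p under 0.05, where 3.21% of all probes were higher. Mrps6 came first, at -0.84 ± 0.15 (SD, n = 6) in LL against -1.14 ± 0.16 (SD, n = 6) in LH, followed by Mrpl21, a core protein of the large subunit, with 0.29 ± 0.10, and Mrps22 with 0.22 ± 0.07 (standard errors, limma, adjusted p = 0.768 for all 3). Without LL mouse 1 the count was 7, and without LL mouse 2 or LH mouse 5 it was 9. It was 11 without the mice of high Xist signal (2.02% of all probes higher). LH against HL had 5 members lower (1.06% of all probes, 0% called), led by Mrpl13, Mrps22 and Mrps24 with -0.21, -0.16 and -0.16. That count was 1 (1.28%) without the mice of high Xist signal, where 0.857% of all probes were lower. It ran from 1, without HL mouse 2 among others, to 11, without HL mouse 5, when each mouse was left out. LL minus HL, where dams differed and all offspring had diet L, had a median difference of 0.03, against -0.01 over all probes. LL against HL had 2 members higher (1.43% of all probes, 0% called), Mrps6 with 0.26 and Mrpl21 with 0.22, while Mrpl32 stood at -0.19. Without HL mouse 1 there were 5 and without LL mouse 5 or HL mouse 6 there was 1. There were 3 without the mice of high Xist signal (1.03% of all probes higher).

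The 4 groups form a 2 by 2 design of dam and offspring diet. The interaction, the offspring diet difference under L dams minus that under H dams, asks whether the 2 diets acted additively. Its median over the members was 0.17, against 0.01 over all probes, and 64 of 78 lay above 0. No member was called (0% of all probes), and 20 were higher and 0 lower at an unadjusted p under 0.05, where 5.4% of all probes were higher. Mrps6 led with 0.65 ± 0.13 (limma, adjusted p = 0.286), then Mrpl53 with 0.69 ± 0.17 and Mrps24 with 0.42 ± 0.11. In the single fit of 8 groups Mrps6 was called (limma, adjusted p = 0.0402, against up to 0.497 over its alternatives). In that fit 28 of all 41171 probes were higher and 30 lower at a false discovery rate under 0.05. Under median centring the median interaction was 0.09 against 0.05 over all probes, and 10 members were higher (3.64% of all probes).

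In the colon no member was called in any of the comparisons with HH. LH against HH had a median difference of -0.08, against 0.00 over all probes, with 73 of 78 members below 0, all 29 Mrps genes among them. None was called (0% of all probes). At an unadjusted p under 0.05 there were 4 members lower and 0 higher, where 1.36% of all probes were lower. Mrpl40, Mrpl4 and Mrpl49 had the lowest p, with -0.14 ± 0.05, -0.14 ± 0.06 and -0.13 ± 0.06 (limma, adjusted p = 1 for all 3). The ratio of Mrpl40 ran from -0.22 through -0.03 to 0.04 in HH and from -0.34 through -0.18 to -0.09 in LH, so the groups overlapped. With slide as a block 16 members (20.5%) were lower, where 3.14% of all probes were lower and 4.93% higher. With median centring in place of loess the median difference was -0.14, against 0.00 over all probes. Then 9 members (11.5%) were lower and 0 higher, where 1.1% of all probes were lower. In the single fit of 8 groups after loess 0 were lower (limma, 1.18% of all probes), and without the mice of high Xist signal 1 (1.19% of all probes). Without HH mouse 3 or 5 there were 8 and 7, without LH mouse 2 or 3 there were 2, and without HH mouse 2 or 6 there was 1. Within the 6 colon slides the difference in the median over the 78 genes ran from -0.16 to -0.01.

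HL against HH had 0 members at an unadjusted p under 0.05 in limma (0.792% of all probes lower, 0% called) and a median difference of -0.05, which turned to 0.03 under median centring. Mrpl13, Mrpl49 and Mrps33 came first, with -0.09, -0.10 and -0.11. LL against HH had 1 lower, Mrpl13, at -0.12 ± 0.05 (1.02% of all probes lower, 0% called), and a median difference of -0.06. Mrpl49 and Mrps24 followed, with -0.12 and -0.13. With slide as a block 6 members were lower (1.94% of all probes), and without HH mouse 2 there was none. The per-mouse median was -0.15 ± 0.09 in HH, -0.20 ± 0.08 in HL, -0.24 ± 0.04 in LH and -0.22 ± 0.08 in LL colons (SD, n = 6 each), and the ranges of all 4 groups overlapped. Slides differed in this median as well. Colon mice numbered 3, on 1 slide, ran from -0.32 to -0.27, and those numbered 6, on another, from -0.20 to -0.04. The ranges of the groups hold this spread between slides, and the fit without slide as a block leaves it in. Within the 6 slides HL minus HH in this median ran from -0.12 to -0.01, below 0 on all 6, while LL minus HH ran from -0.12 to 0.02, below 0 on 5.

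Whether the LH minus HH difference itself differed between the tissues was tested in the single fit of 8 groups. No member passed (lowest adjusted p = 0.606, limma), and 7 of 78 were more negative in the liver at an unadjusted p under 0.05, where 3.99% of all probes were. Mrps17 led, with a difference of -0.30 ± 0.09 between its liver and colon responses, followed by Mrps33 with -0.37 and Mrpl54 with -0.36. The median of this difference over the members was -0.09, which turned to 0.10 under median centring.

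Between liver and colon many members were called. Of the 78 genes 29 were called higher in the liver (14.6% of all probes) and 2 lower (15.7% of all probes), and the median difference was 0.49, against 0.01 over all probes. This depends on the scaling: with median centring in place of loess the median of all probes was 0.22 and that of the members -0.05. Then 6 members were called higher and 7 lower, where 13992 of all probes were called higher and 10231 lower. All 6 members called higher and both of the lower ones named below were among the calls with loess. Tissue and slide cannot be told apart, since liver and colon were on different slides.

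Mrps18b, 1 of the 3 S18 paralogs, had the largest difference after loess. Its ratio ran from 0.75 through 1.41 to 1.84 in 23 livers and from -0.42 through 0.01 to 0.41 in 24 colons, without overlap, a difference of 1.37 ± 0.07 (standard error). Its paralogs Mrps18a and Mrps18c differed by 0.55 and 0.34, and Mrps18c by -0.16 under median centring. Mrps7, a core protein of the small subunit's head, differed by 1.29 ± 0.05, from -0.61 ± 0.17 (SD, n = 24) in colon to 0.68 ± 0.17 (SD, n = 23) in liver. Mrps10, another core protein of the head, differed by 1.25 ± 0.05, Mrpl53 by 1.16 ± 0.06 and Mrpl38 by 1.11 ± 0.04. Of these 5, all but Mrpl38 were also called under median centring, where Mrps18b, Mrps7 and Mrps10 stood at 0.75, 0.78 and 0.77 and the largest differences named here were those of Mrps25 and Mrps36. Among the genes fixed by role, Mrps2, Mrps22, Mrps12, Mrps34 and Mrpl12 were called higher too, at 1.05, 0.97, 0.80, 0.69 and 0.65. None of these 5 was called under median centring, where they stood at 0.45, 0.40, 0.34, 0.29 and 0.25. Mrpl58, Mrps16 and Mrpl44 were higher by less than 1.5-fold, at 0.53, 0.47 and 0.34. Mrpl44 was at -0.19 under median centring.

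The 2 genes called lower in the liver were Mrps25, a mitochondria-specific protein of the small subunit, and Mrps36. Mrps25 ran from -0.99 through -0.53 to -0.11 in livers and from 0.05 through 0.38 to 0.85 in colons, without overlap, a difference of -0.91 ± 0.06. Mrps36 went from -0.17 ± 0.13 (SD, n = 24) in colon to -0.89 ± 0.19 (SD, n = 23) in liver, a difference of -0.71 ± 0.05. Under median centring the differences were -1.54 and -1.27. Both had a second probe on the same side, at -0.57 and -0.46, and in each gene 1 of the 2 probes was not called. Mrpl3 lay lower by -0.35 without a call, and was called under median centring at -0.83. The mice of the tissues did not overlap in 26 members higher in liver (11.1% of the probes measured on all arrays) and 2 lower (12.1%). Under median centring these were 1 member higher (26.9% of probes) and 6 lower (17.9%).

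**Figure D4:**
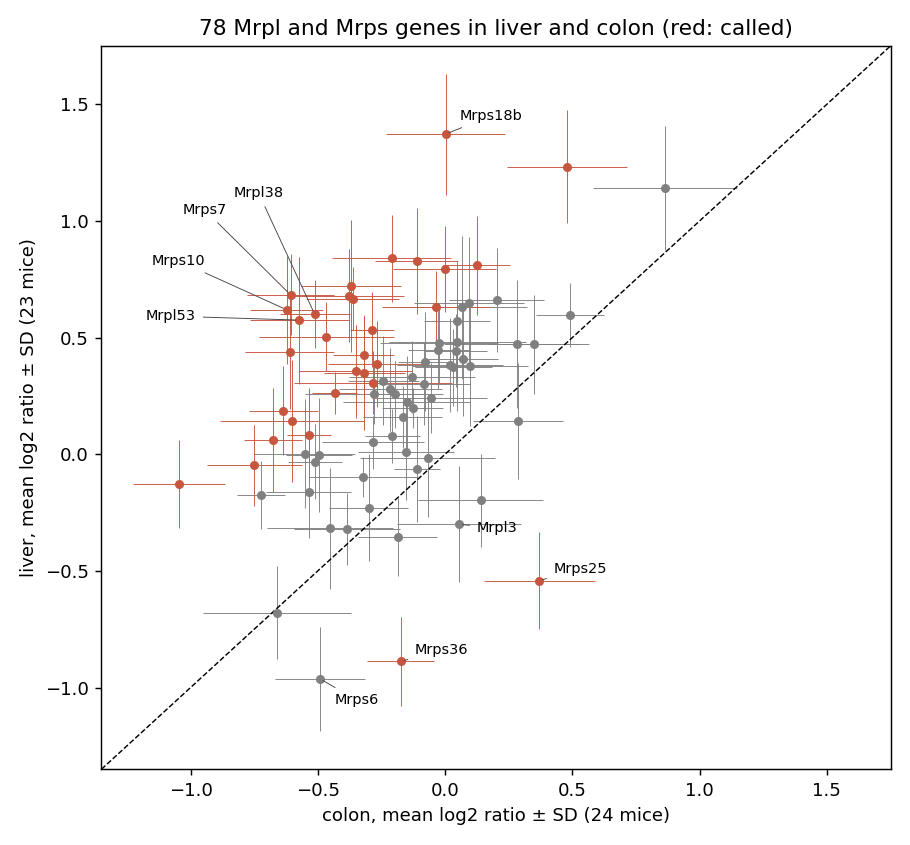
Mean log2 ratio ± SD of each of the 78 genes in colon (x axis, 24 mice) and liver (y axis, 23 mice), after loess. Red points are the 31 genes called, and the dashed line marks equal ratios. Mrps18b, Mrps7 and Mrps10 lie far above the line and Mrps25 and Mrps36 below it, and under median centring these 5 were called on the same sides, while the median of all 78 turned from 0.49 to -0.05.

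The genes around the mitochondrial ribosome were read the same way in liver LH against HH, where at an unadjusted p under 0.05 6.15% of all probes were lower and 5.84% higher. The shares of several of these short lists lay near those values. Of 5 mitochondrial ribosomal proteins with other names 1 was lower at an unadjusted p under 0.05, Chchd1, at -0.47 ± 0.11 (limma, adjusted p = 0.180), Ptcd3 stood at -0.12, and their median was -0.10. Of 24 assembly factors 2 were lower and 1 higher, Gtpbp10 at 0.44, named after its value was seen (median -0.06), with Malsu1, which keeps the subunits apart during assembly, at -0.41 ± 0.10 and Fastkd2, which binds the large ribosomal RNA, at -0.33 ± 0.11. Of 15 translation factors 2 were lower and 2 higher (median -0.09): Slirp, which stabilises mitochondrial messenger RNA, at -0.77 ± 0.23, and the elongation factor Tsfm at 0.48 ± 0.18. Of 20 genes that charge mitochondrial transfer RNA 1 was lower and 1 higher (median 0.04), Tars2 at -0.16 and Iars2 at 0.31. Of 12 genes of mitochondrial transcription and biogenesis 1 was lower (median 0.04), Mtres1 at -0.35 ± 0.10, and Pprc1 was at -0.29 without passing. No messenger RNA of the mitochondrial genome was matched on the array. None of these genes was called (limma).

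Members of the cytosolic ribosome and the respiratory chain were read in that comparison too, after loess alone like the lists above. Of 84 cytosolic ribosomal protein genes 38 (45.2%) were lower and 1 higher at an unadjusted p under 0.05, with a median of -0.21, where 6.15% of all probes were lower. Rpl41 was at -0.56 ± 0.11 and Rpl34 at -0.47 ± 0.10 (limma, adjusted p = 0.120 and 0.180). Of 91 nuclear genes of the respiratory chain and ATP synthase 40 (44.0%) were lower and 2 higher, with a median of -0.21. This list was drawn by the start of gene symbols, so it can hold assembly factors of complex I beside subunits. Ndufb4, of complex I, was at -0.64 ± 0.11 and Atp5e, of ATP synthase, at -0.69 ± 0.12 (limma, adjusted p = 0.120 for both). In LL against LH the medians of these groups were 0.16 and 0.12. In colon LH against HH they were 0.04 and -0.10. Between the tissues, after loess alone, 63 of 84 cytosolic genes were called lower in liver and 3 higher, with a median of -0.81. Of 91 respiratory chain genes 15 were called higher and 2 lower, with a median of 0.20. Of all probes 14.6% were called higher and 15.7% lower, so the share of respiratory chain genes called higher lay near that of all probes.

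**Figure D5:**
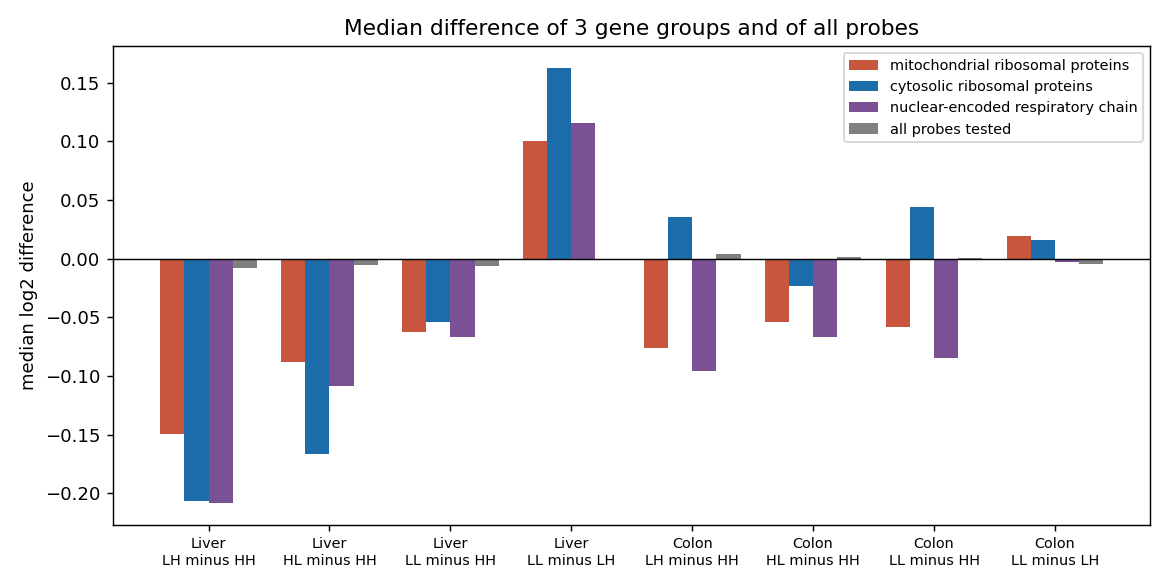
Median log2 difference (y axis, bars from 0) over the 78 mitochondrial ribosomal protein genes, 84 cytosolic ribosomal protein genes, 91 nuclear respiratory chain genes and all probes tested, in 4 liver and 4 colon diet comparisons (x axis). All bars are after loess. In liver LH minus HH the bars stand at -0.15, -0.21, -0.21 and -0.01. Under median centring the mitochondrial ribosomal protein genes stood there at -0.04 and all probes at -0.06. These genes then stood at 0.04 in liver HL minus HH and 0.10 in liver LL minus HH. The comparisons with HH share the HH mice and no bar carries a test.

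Cell type markers were read in liver LH against HH as well, where the groups overlapped in each mean given here and 6.15% of all probes were lower and 5.84% higher at an unadjusted p under 0.05. The mean over 8 hepatocyte markers, of which 2 were higher at an unadjusted p under 0.05, ran from 1.40 to 1.85 in HH livers and from 1.69 to 2.11 in LH livers, and that over 8 Kupffer macrophage markers from 1.14 to 2.55 and from 1.12 to 2.31, with 1 lower. The 8 lymphocyte markers had a mean from -0.09 to 0.11 in HH and from -0.37 to 0.04 in LH, with 3 lower at an unadjusted p under 0.05, and 6 of them were well above background on every array of both groups. The 5 erythroid markers ran from 0.09 to 0.40 and from -0.04 to 0.23, with 1 lower. The mean over 5 adipocyte markers spread widely, from -1.68 to -0.66 in HH livers and from -2.14 through a median of -1.54 to 1.51 in LH livers. Of these, 2 in HH and 3 in LH livers were well above background on every array. In colons it ran from 1.39 to 2.51 in HH and from -1.07 to 2.40 in LH. In both tissues 0 adipocyte markers were lower or higher at an unadjusted p under 0.05. No marker was called. Their part in the differences of the ribosomal protein genes was not tested.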

How the data were processed

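RNA of 24 liver and 24 colon samples was hybridised, labelled with Cy3, against a Cy5-labelled reference RNA. The authors deposited the median intensity of every spot and its local background without normalization, and a table of reference-over-mouse log2 values, which with the sign turned correlated at 1.00 with loess without background correction. The files were made with Feature Extraction 10.10.1.1 per the file headers, an image analysis program. The submitters' processing notes name R 3.0.2 and limma. The labels describe the reference as multi-organ RNA, and accounts of its source differ. Deposited values were used from the raw intensities on.

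Spots brighter in local background than in signal were given the median background of the array and channel, without which the SD of the ratios of an array fell as low as 0.53, against 0.79 or more with it. The normexp method with an offset of 50 removed background, global loess was run within each array, and control spots and 102 to 261 outlier spots per array were left out. Precision is set by how many mice there are. The p-values weigh a difference against the spread between these mice, which in the main fit holds differences between slides. Of 41174 probes, 27050 were named through their accession. Both arrays of 1 HH liver mouse, whose deviations from the group mean correlated at 0.81 against at most 0.26 for other HH pairs, were averaged. limma 3.58.1 (R 4.3.3) was fitted to the 4 groups of a tissue, or to all 8 for liver against colon, over all probes and checked on simulated data. A call needed a fold over 1.5 and a Benjamini-Hochberg FDR under 0.05, and members were also counted at an unadjusted p under 0.05. Genes named were the 3 members of lowest p per comparison, the 5 called members of largest difference in each direction between tissues, members without overlap between HH and LH livers, a list fixed by role, and the 2 genes of lowest p in each other list. Members and lists were chosen with earlier results of these data known. Alternatives were other background, normalization and probe settings, slide as a block, and leaving out each mouse or those of high Xist signal. Motifs were searched in RefSeq promoters.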

Additional observations from a re-analysis of the deposited data

Results flagged for a closer look

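Among 136 groups of values, those of 14 genes and of the medians per mouse, 5 held a mouse whose gap to the nearest other was large for the range of its group, and chance gives about 1 in 20. In LH colons, the median over the Mrps genes was -0.31 in mouse 3, with the nearest at -0.22. In LH livers, the Mrps17 ratio was 0.30 in mouse 4, with the nearest at 0.38. In HL colons, the Mrps24 ratio was -0.088 in mouse 1, with the nearest at -0.29. In LL colons, the Mrpl33 ratio was 0.086 in mouse 6, with the nearest at -0.42. In LL livers, the Mrps18b ratio was 1.02 in mouse 2, with the nearest at 1.41.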

How the results depend on the processing

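Of the alternatives to the main results, 851 kept direction and side of the threshold (counts within 1.5 times), 7 medians moved by more than the spread between mice, 6 counts were lower and 2 higher. Median centring in place of loess gave medians over the members of -0.041 (liver LH minus HH), 0.041 (HL minus HH), 0.10 (LL minus HH) and 0.090 (interaction). The median was 0.030 in colon HL minus HH, -0.050 in liver minus colon and 0.10 in the difference of the LH minus HH responses. Counts were then 10 lower in liver LH against HH, 9 lower in colon LH against HH and 10 higher in the interaction. In liver against colon 6 members were called higher and 7 lower, where 13992 and 10231 of all probes were. The single fit of 8 groups called 1 member in the interaction, higher, where 28 of all probes were higher at a false discovery rate under 0.05. Leaving out each mouse, the count of members higher in liver LL against LH ran from 7 to 15. Among single genes in liver LH minus HH, median centring turned Mrpl12 to 0.059, Mrpl44 to 0.10 and Mrps7 to 0.071, and the mean of all probes turned Mrpl44 to 0.16 and Mrps2 to -0.060. Leaving out each mouse, Mrps18b ran from -0.064 to 0.18, Mrpl12 from -0.089 to 0.010 and Mrps2 from -0.020 to 0.17. In liver minus colon, median centring turned Mrps18c to -0.16 and Mrpl44 to -0.19. The cause was not tested. No paired analysis was possible because the labels number no replicates that pair mice across groups, and the animal codes of liver and colon differ, so that slide was the sole block to be had. Each slide held 1 array of each diet, and with slide as a block the members lower in LH against HH were 27 in liver and 16 in colon. With 5 or 6 mice a group, the 95% confidence interval of a member's liver LH minus HH difference reached 0.24 to either side at the median.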
